A study of Rattus norvegicus with 43 samples.

Results

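Distal colon gene expression in rats fed 5 Western diets was compared with that in rats fed a control diet. All 43 arrays of the series entered the comparison: 38 from the Western diets and 5 from the control diet. The difference for a gene was the mean of the 5 Western diet means, each diet counting equally, minus the control mean. Genes whose 5 diet means all lay on the same side of the control mean were of particular interest. Of 14506 genes with a symbol, 10828 passed a filter on low signal and were tested.

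The animals were Sprague Dawley rats, 11 weeks old, and the labels describe 1 array per rat, hybridised from 100 ng of total RNA of whole distal colon tissue. The labels name the diets by code: control (5 arrays), LAMS (7), HAM (8), HAMSB (9), LAW (6) and HAW (8). The labels do not give their composition. From what is known of the study, the Western diets held more fat and protein than the control diet. They differed from each other in starch: low-amylose maize starch in LAMS, high-amylose maize starch in HAM (written HAMS in the series text), its butyrylated form in HAMSB, and low- and high-amylose wheat in LAW and HAW. LAMS was taken as a Western diet on the same basis. The comparison therefore asks which colon genes differed from control whatever starch the Western diet carried, and fat, protein and starch source cannot be told apart in it. Sex, cage and litter are not in the labels, so the p-values measure the spread between these arrays.

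The wall of the distal colon is a layered organ. An epithelium of colonocytes, goblet cells and hormone-secreting cells faces the lumen, a stroma of fibroblasts, vessels and immune cells supports it, and smooth muscle with an embedded enteric nervous system drives motility. RNA from the whole wall mixes all of these, so a change in the share of a cell type and a change of RNA per cell cannot be told apart.

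The arrays carried the markers of whole distal colon. All 10 colon epithelium markers on the array passed the filter, with mean log2 levels over all arrays from 8.50 (the intestinal transcription factor Cdx2) to 12.4 (the keratin Krt8). All 5 smooth muscle markers passed, from 11.4 for Cnn1 to 12.8 for Acta2, so muscle was part of the tissue sampled. Of 6 neuron and glia markers 5 passed, as did 4 of 4 goblet cell markers and 4 of 5 lymphoid follicle markers. Of 4 small intestine markers 1 passed, Apoa4 at 5.89, and the other three lay between 4.33 and 4.47, below the filter at 4.79. No arrays held identical values, and the highest correlation between arrays was 0.993. The file names in the labels come in 3 styles, and no control array has the style that all 8 HAM arrays share. That style also covers 5 HAMSB, 3 LAMS, 3 HAW and 1 LAW arrays. For all of these arrays a difference from control cannot be told apart from a difference of style. Of the control arrays, 2 have the plain style, with 4 LAMS, 5 LAW and 5 HAW arrays, and 3 have names starting with the number, with 4 HAMSB arrays. What these styles stand for is not in the labels.

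Levels below are log2 expression values of RMA, a method that corrects background and is meant to bring arrays to a shared distribution. The deposited arrays did not fully share one, as the interquartile range of their values ran from 2.68 to 3.40. A difference is given on the log2 scale with its standard error from limma, a linear model that shares information on the spread between genes. Tests were two-sided, with Benjamini-Hochberg adjustment across the 10828 genes. The words rose and fell are used for genes with an adjusted p under 0.05.

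Most of the genes that changed were lower in the Western diets than in control. Of 10828 genes 157 changed (1.45%), with 147 lower in the Western diets (1.36%) and 10 higher (0.0924%). The falls ran from -0.68 to -0.21 with a median of -0.39, and the 10 higher genes from 0.32 to 0.54. Among these 10, Or7c19 and Sppl2c passed the signal filter only through the Western arrays. The falls included the angiotensin receptor Agtr1a, the neuropeptide Npy, the neurotrophic factor receptor Ret, the fibroblast growth factor receptor Fgfr1, the collagen cross-linking enzyme Lox and the fatty acid desaturase Fads2. All 157 had the 5 diet means on the same side of control. Over all genes tested, 29.6% had all 5 diet means below control and 9.54% had all 5 above. The 5 differences share the same 5 control arrays, so a low or high value in those arrays moves all 5 together.

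The lowest adjusted p in limma was 0.016, and the 95% interval of a typical gene (the median) was 0.23 wide on each side. Before adjustment 1820 genes (16.8%) had a p under 0.05, of which 1512 were lower and 308 higher. The median difference over all genes was -0.07, and 67.5% of genes lay below 0. With each array centred on its own median no gene passed, 1345 genes had an unadjusted p under 0.05 and the lowest adjusted p in limma was 0.174.

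The count of 157 rested on single control arrays and on 1 diet. It was 0 without control replicate 3, where 1401 genes had an unadjusted p under 0.05, and 0 without control replicate 4, where 1383 had. It was 1 without control replicate 1, 60 without control replicate 2 and 96 without LAW replicate 3, and lay between 125 and 222 without any other array. It was also 0 with HAM left out of the mean, where 1208 genes kept an unadjusted p under 0.05 and the lowest adjusted p in limma was 0.0602. It was 350 with HAMSB left out. Every one of the 157 genes kept its sign in these fits, which their choice from the same arrays largely fixes. The genes named below as fallen or risen therefore did not pass without control replicate 3 or 4, or without HAM. Some failed in many more of the 43 fits that left out 1 array. Bnip3 did not pass in 27 of them, Alcam in 23, Lrtm2 in 21, Inhbb in 20 and Sppl2c in 11, against 3 for Ret and Mxra8.

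Within the file name styles that hold control arrays, and within the ranges of the file numbers, no gene passed. The counts at an unadjusted p under 0.05 were 838 in the plain style, 709 in the style that starts with the number, 1847 for numbers to 30 and 1401 for numbers above 30. With style as a block 307 genes passed, 302 lower and 5 higher, and 102 of the 157 were among them. With the range as a block 161 passed, 154 of them among the 157.

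The 5 diets differed in how far the falling genes lay below control. Over the 147 genes the median difference was -0.37 in LAMS, -0.55 in HAM, -0.30 in HAMSB, -0.38 in LAW and -0.36 in HAW. HAM had the lowest mean for 115 of the 147. Each diet was also tested against control on its own in limma, with the same 5 control arrays in each. HAM had 2367 lower genes (21.9%) and 472 higher (4.36%). HAMSB had 52 lower (0.48%) and 39 higher (0.36%), and LAW had 5 lower (0.0462%) and 0 higher (0%). LAMS and HAW had 0 in either direction (0%). Before adjustment 935 genes had a p under 0.05 in LAMS, 1069 in HAW, 1147 in LAW, 2227 in HAMSB and 4435 in HAM. An F test among the 5 Western diets passed for 2974 of all genes (27.5%) and for 74 of the 157. For 92 of the 147 falling genes all 5 diet means lay below the lowest control array, as they did for 3.48% of all genes, and for 132 at least 4 did, against 9.07%. The choice of the 147 by the same arrays largely fixes such a gap, so it is no separate support.

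Fgfr1 stood clear of control on every array. It encodes a receptor for fibroblast growth factors in mesenchyme and smooth muscle. Its control levels were 8.84, 8.84, 8.82, 9.00 and 8.78, and the 38 Western arrays ran from 7.77 through a median of 8.36 to 8.76. The groups did not overlap, with every Western array below the lowest control array. The difference was -0.48 ± 0.09 (adjusted p = 0.016, limma), or 1.40-fold lower. By diet it was -0.43 in LAMS, -0.79 in HAM, -0.33 in HAMSB, -0.45 in LAW and -0.41 in HAW. Such a complete separation held for 2 of the 10828 genes (0.0185%). The other gene, Ston1, a sorting adaptor of endocytosis, ran from 7.18 to 7.29 in control and from 6.00 to 7.15 in the Western diets. Its difference of -0.35 ± 0.10 did not pass (adjusted p = 0.0574, limma).

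Vstm4, a membrane protein of the immunoglobulin family, had the smallest p. Control levels were 7.63, 7.40, 7.87, 7.82 and 7.65, and Western levels ran from 6.86 through 7.22 to 7.66. All 38 Western arrays lay below the control mean, although the highest reached into the control range. The difference was -0.47 ± 0.09 (adjusted p = 0.016, limma), with diet values from -0.29 in HAMSB to -0.55 in HAM and LAW.

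**Figure D1:**
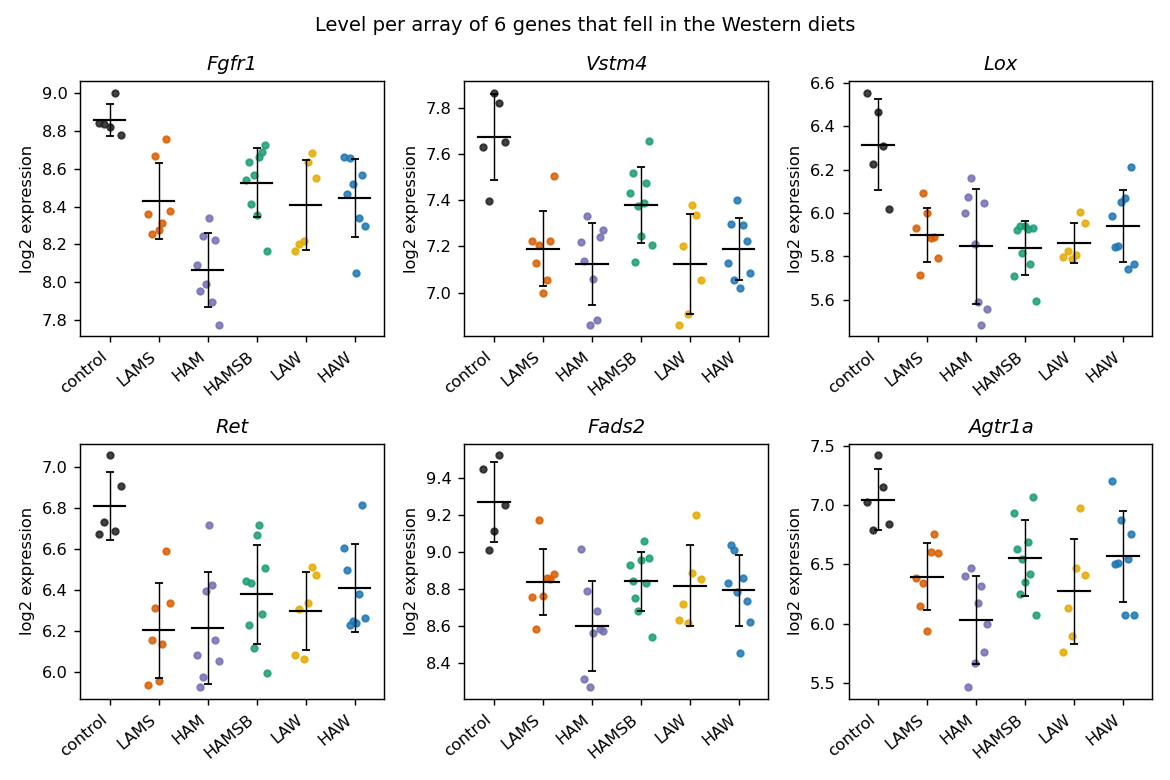
Log2 expression of Fgfr1, Vstm4, Lox, Ret, Fads2 and Agtr1a on each array, by diet. Points are arrays, horizontal lines are diet means and bars are 1 SD. The control points of Fgfr1, from 8.78 to 9.00, lie above every Western point, while those of the other genes overlap with some Western arrays.

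Of the 147 genes that fell, 61 could be placed in 6 groups by what they are known to do. These groups were formed after the values had been seen and serve only to order the description. The other 86 have other or unclear roles, or were not placed.

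Genes that build and cross-link extracellular matrix made up 12 of the 61. Collagen fibres are assembled by enzymes that hydroxylate, fold and cross-link the chains, and matrix stiffness depends on them. Lox, the copper enzyme that starts the cross-linking of collagen and elastin, had control levels of 6.55, 6.23, 6.46, 6.31 and 6.02 and Western levels from 5.48 through 5.89 to 6.21. Every Western array lay below the control mean and 31 lay below all control arrays. The difference was -0.44 ± 0.09 (adjusted p = 0.016, limma). The diets gave similar values for Lox, from -0.37 in HAW to -0.48 in HAMSB, and the F test among them gave an adjusted p of 0.818 in limma.

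Its relative Loxl1 fell by 0.38, the lysyl hydroxylase Plod1 by 0.36, and the collagen chaperones Fkbp10 and Crtap by 0.39 and 0.42. Pxdn, a peroxidase that cross-links the collagen of basement membranes, had control levels of 5.80, 6.02, 5.99, 6.12 and 6.02 against 4.73 to 6.20 in the Western diets, with a median of 5.38. Of the Western arrays 31 lay below all control arrays, and the highest lay above them. Pxdn fell by 0.58 ± 0.15 (adjusted p = 0.0396, limma). Fbln1, a matrix protein of elastic fibres, ran from 10.06 to 10.34 in control and from 8.80 through 9.75 to 10.26 in the Western diets. It fell by 0.52 ± 0.13 (adjusted p = 0.0393, limma) and lay below all controls on 35 of 38 arrays. Aebp1 and the collagen receptor Ddr2 fell by 0.42 and 0.50, and the remaining members, Fam20c, Tgm2 and Qsox1, by 0.29 to 0.36.

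Most of the collagens themselves did not pass. In a list of 19 fibroblast and matrix genes 1 fell, Fbln1 (5.26%, against 1.36% of all genes), and the median was -0.26 against -0.07 over all genes. All 19 lay below 0, against 67.5% of all genes, and 15 had all 5 diet means below control, against 29.6%. Col1a1 was at -0.19 ± 0.12, Col3a1 at -0.19 ± 0.13 and the fibroblast receptor Pdgfra at -0.44 ± 0.13 (adjusted p = 0.0697, limma). The list median was -0.62 in HAM and from -0.34 to -0.11 in the other diets.

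The second group, of 15 genes, belongs to neurons, synapses and axon guidance. The enteric nervous system grows under the ligand GDNF, which signals through the co-receptor Gfra1 and the receptor kinase Ret. Ret had control levels of 6.67, 6.73, 7.06, 6.69 and 6.91 and Western levels from 5.92 through 6.29 to 6.81. Of the 38 Western arrays 35 lay below every control array. Ret fell by 0.51 ± 0.11 (adjusted p = 0.027, limma), or 1.42-fold, with diet values from -0.61 in LAMS to -0.40 in HAW. Gfra1 ran from 6.57 to 6.78 in control and from 5.92 through 6.36 to 6.65 in the Western diets. It fell by 0.35 ± 0.09 (adjusted p = 0.0449, limma).

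Npy, a neuropeptide of enteric neurons and sympathetic fibres, was the most variable of them. Control levels were 6.66, 6.11, 6.32, 7.13 and 6.08, and the Western arrays ran from 4.79 through 5.80 to 6.71. The groups overlapped, and 31 of 38 Western arrays lay below all controls. Npy fell by 0.66 ± 0.17 (adjusted p = 0.0421, limma), or 1.58-fold. Its diet values lay between -0.74 and -0.52, and the F test among diets did not pass (adjusted p = 0.784, limma).

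Among neuronal structural genes Gap43, a growth cone protein, fell by 0.44 ± 0.12, from controls of 6.59 to 6.91 to a Western median of 6.39. The microtubule protein gene Map1b fell by 0.53 and Dpysl3, which acts in axon growth, by 0.49. Chrna3, the nicotinic receptor subunit of autonomic neurons, fell by 0.55 ± 0.14, and 36 of 38 arrays lay below all controls. Nlgn2, an adhesion protein of inhibitory synapses, had control levels of 6.53, 6.74, 6.67, 6.72 and 6.86 and Western levels from 5.92 through 6.37 to 6.75. It fell by 0.36 ± 0.08 (adjusted p = 0.0279, limma), by 0.48 in HAM and 0.14 in HAMSB. The brain proteoglycan gene Cspg5 fell by 0.50 ± 0.12, and its Western median of 4.84 lay close to the signal filter. The axon guidance genes Sema3f, Nrp2, Plxnd1 and Ntng1 fell by 0.34 to 0.47, as did Dpp6 by 0.47 and Amigo2 by 0.32.

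In the list of 19 enteric neuron and glia genes 4 fell (21.1%, against 1.36% of all genes) and none rose, namely Ret, Gfra1, Gap43 and Npy. The list median was -0.35 and 13 members had all 5 diet means below control, against 29.6% of all genes. Members that did not pass included Nefl at -0.67 ± 0.21, Prph, the peripherin filament of peripheral neurons, at -0.64 ± 0.18 (adjusted p = 0.0527, limma), Uchl1 at -0.59 ± 0.17 and the neuropeptide Vip at -0.56 ± 0.18. The 3 glial members were at other values, with Sox10 at 0.05 ± 0.09, S100b at 0.09 ± 0.20 and Gfap at 0.17 ± 0.09. Of 20 synapse and axon genes, a list that shares members with the former, 2 fell, Nlgn2 and Gap43 (10%, against 1.36% of all genes), with a median of -0.28. Its synaptic vesicle genes Syt1 and Syn2 were at -0.59 ± 0.18 and -0.37 ± 0.10 and did not pass.

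The third group held 9 genes of vessels and growth factor signalling, Fgfr1 among them. Agtr1a, the receptor through which angiotensin contracts vessels, had the lowest difference of all 157 genes. Control levels were 7.03, 6.79, 7.42, 7.16 and 6.84, and Western levels ran from 5.46 through 6.40 to 7.20. The groups overlapped on 5 Western arrays, and 33 of 38 lay below all controls. Agtr1a fell by 0.68 ± 0.16 (adjusted p = 0.0295, limma), or 1.61-fold, with -1.02 in HAM and -0.48 in HAW. Ptgis, which makes the vasodilator prostacyclin, fell by 0.56 ± 0.14, and all 38 arrays lay below the control mean.

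Acvrl1 and Bmp6, a receptor and a ligand of the BMP family, fell by 0.33 and 0.49. Adgrl4, Pear1, the integrin subunit Itgb3 and the endothelial GTPase Rhoj fell by 0.29 to 0.49. None of the 18 genes in the endothelium list passed in limma, and 11 had an unadjusted p under 0.05, all of them lower, against 16.8% of all genes in either direction. The list median was -0.23, and 12 of the 18 had all 5 diet means below control, against 29.6% of all genes. Emcn was at -0.45 ± 0.15, Eng at -0.29 ± 0.08 (adjusted p = 0.0643, limma) and Kdr at -0.28 ± 0.11, while Pecam1 was at 0.02 ± 0.22 and Cldn5 at 0.06 ± 0.14.

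The fourth group, of 12 genes, acts in muscle membranes, ion channels and muscle transcription. Srf encodes serum response factor, which binds the CArG box and drives contractile genes. Its control levels were 8.95, 8.85, 9.09, 9.40 and 9.07 and its Western levels ran from 8.38 through 8.68 to 9.23. The groups overlapped, with 29 of 38 Western arrays below all controls. Srf fell by 0.36 ± 0.09 (adjusted p = 0.0396, limma), by 0.47 in LAW and 0.10 in HAMSB. Asb2, a ubiquitin ligase subunit of muscle, fell by 0.44 ± 0.09 (adjusted p = 0.0185, limma), and all 38 arrays lay below the control mean.

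Genes of the surface membrane were among the largest falls. Fxyd1, a regulator of the sodium pump, had control levels of 9.81, 9.51, 9.91, 10.29 and 9.65 and Western levels from 8.35 through 9.30 to 9.89. It fell by 0.63 ± 0.14 (adjusted p = 0.0279, limma). Cavin3, a coat protein of caveolae, had control levels of 9.19, 9.03, 9.18, 9.64 and 8.98 and Western levels from 7.73 through 8.66 to 9.18. It fell by 0.57 ± 0.13, and 34 arrays lay below all controls. Ehd2, another caveolar protein, fell by 0.46. Popdc3 and the membrane repair gene Dysf fell by 0.49 and 0.33. The potassium channel genes Kcnh2, Kcnip2 and Abcc9 fell by 0.29 to 0.42, the adenylate cyclase Adcy5 by 0.46 and the nucleotide exchange factor Arhgef25 by 0.52.

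The contractile genes did not pass. None of 20 smooth muscle genes passed in limma, and 5 had an unadjusted p under 0.05, against 16.8% of all genes. All 20 lay below 0 and 17 had all 5 diet means below control, against 67.5% and 29.6% of all genes, with a median of -0.25. Actin Actg2 was at -0.18 ± 0.11, myosin Myh11 at -0.23 ± 0.13, Tagln at -0.27 ± 0.12 and Lmod1 at -0.47 ± 0.16 (adjusted p = 0.108, limma). The control levels of Actg2 were 12.49, 12.33, 12.33, 12.75 and 12.15, within the Western range of 11.65 to 12.63 on 4 of the 5 arrays.

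The promoters of Srf and Rhoj are shown because they were the only ones among the falling genes with a CArG box, the motif that Srf binds. RefSeq promoter sequences, read on assembly GRCr8 as the 250 bases before each start, were matched for 109 of the 147 genes. The CArG box, searched on both strands, was in 2 of these (1.83%) and in 1.16% of 8947 promoters of tested genes. Capitals mark the CArG boxes, at 81 and 61 bases before the start of Srf and at 237 bases before that of Rhoj. The Srf promoter lies at chr9:21923826-21924075 and the Rhoj promoter at chr6:99771133-99771382, both on the plus strand.
Srf promoter: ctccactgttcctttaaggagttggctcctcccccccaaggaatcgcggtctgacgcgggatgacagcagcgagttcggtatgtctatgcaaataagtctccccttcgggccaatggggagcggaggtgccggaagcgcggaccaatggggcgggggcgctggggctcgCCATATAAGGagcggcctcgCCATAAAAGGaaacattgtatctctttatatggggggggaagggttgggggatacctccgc
Rhoj promoter: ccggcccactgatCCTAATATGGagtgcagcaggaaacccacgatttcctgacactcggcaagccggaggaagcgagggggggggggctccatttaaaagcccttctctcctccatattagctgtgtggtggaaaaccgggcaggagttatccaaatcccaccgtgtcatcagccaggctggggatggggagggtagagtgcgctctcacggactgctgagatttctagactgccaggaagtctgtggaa
The motif GGAATG bound by TEAD factors was in 9 of the 109 promoters (8.26%) against 10% of all, TATAAA in 8 (7.34%) against 6.88%, and the GC box GGGCGG in 74 (67.9%) against 57.7%, each on both strands. A match describes letters in this window and is not a binding site.

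The fifth group held 9 genes of metabolism and redox chemistry. Fads2, the desaturase that starts the synthesis of long polyunsaturated fatty acids, had control levels of 9.45, 9.01, 9.11, 9.52 and 9.25 and Western levels from 8.27 through 8.79 to 9.20. All 38 Western arrays lay below the control mean and 32 below every control array. Fads2 fell by 0.49 ± 0.10 (adjusted p = 0.016, limma), or 1.41-fold, with diet values from -0.67 in HAM to -0.43 in HAMSB and LAMS. Its partner Fads1 was at -0.38 ± 0.11 and did not pass (adjusted p = 0.0674, limma). In the fatty acid synthesis and desaturation list 1 of 18 genes fell (5.56%, against 1.36% of all genes), and the median was -0.01. Fasn was at 0.00 ± 0.08, and Scd at 0.40 ± 0.31.

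Bcat1, a transaminase of branched-chain amino acids, had control levels of 6.96, 6.63, 7.21, 7.19 and 6.91 and Western levels from 5.88 through 6.49 to 7.04. It fell by 0.47 ± 0.10 (adjusted p = 0.0279, limma). The urea cycle enzyme Asl, argininosuccinate lyase, ran from 6.87 to 7.08 in control and from 6.36 through 6.73 to 7.00 in the Western diets. It fell by 0.28 ± 0.07 (adjusted p = 0.0342, limma). These were 2 of 21 genes in the list of sulphide, ammonia and amino acid handling (9.52%, against 1.36% of all genes), whose median was -0.12. Ass1, the enzyme before Asl in the cycle, was at -0.37 ± 0.11 and did not pass (adjusted p = 0.0707, limma), and the sulphide oxidase Sqor was at -0.01 ± 0.16.

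The metalloreductase Steap4 fell by 0.43 ± 0.08 (adjusted p = 0.016, limma), from controls of 7.16 to 7.77 to a Western median of 6.96. The secreted glutathione peroxidase Gpx3 fell by 0.53, the globin Cygb by 0.34, Cyb5r3 by 0.44, Tmlhe of carnitine synthesis by 0.35, and Alox5ap, which supplies substrate for leukotrienes, by 0.46. The sixth group was 4 genes of growth control, with the Hippo pathway genes Tead2 and Lats2 at falls of 0.33 and 0.46 and the transcription factors Mitf and Bnc2 at 0.38 and 0.37.

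The rule for the largest falls added Mxra8, Gulp1, Bnip3, Pnkd and Olfml1. Mxra8, a surface protein of mesenchymal cells, had control levels of 8.14, 8.02, 8.06, 8.22 and 7.79 and Western levels from 6.48 through 7.50 to 8.06. It fell by 0.57 ± 0.11 (adjusted p = 0.016, limma), by 0.98 in HAM and 0.44 to 0.52 in the other diets. The engulfment adaptor Gulp1 fell by 0.62 ± 0.14, the mitophagy receptor Bnip3 by 0.60 ± 0.16, Pnkd by 0.57 ± 0.15 and Olfml1 by 0.57 ± 0.12. Each of these was lowest in HAM, from -0.81 for Olfml1 to -1.02 for Bnip3. The sulphotransferase Hs3st1, which modifies heparan sulphate, fell by 0.40 ± 0.08 (adjusted p = 0.0185, limma).

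None of the 10 genes counted as higher was in a list described here. For Or7c19 and Sppl2c all 5 control arrays lay below the filter at 4.79, so they passed it only through the Western arrays, and their values are given as a description. Or7c19, an olfactory receptor gene, had control levels of 4.22, 4.73, 4.28, 4.59 and 4.45 and Western levels from 4.36 through 4.97 to 6.13. The difference was 0.54 ± 0.14, and 37 of 38 arrays lay above the control mean. That of Sppl2c, a protease of the signal peptide peptidase family, was 0.39 ± 0.10. Tigd3, derived from a transposase, had control levels of 4.72, 4.84, 5.01, 5.29 and 4.68 and Western levels from 4.98 through 5.38 to 5.93. It rose by 0.49 ± 0.11 (adjusted p = 0.028, limma). Otop3, a proton channel, rose by 0.38 ± 0.09 from controls of 4.90 to 5.14.

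Inhbb encodes the activin beta B chain. Its control levels were 6.46, 6.63, 6.59, 6.79 and 6.91 and its Western levels ran from 6.55 through 7.05 to 7.68. It rose by 0.37 ± 0.10 (adjusted p = 0.0458, limma), by 0.63 in HAM and 0.18 in LAW. The homeobox gene Vax1 rose by 0.37 ± 0.09, the connexin Gja3 by 0.35 ± 0.08, Nupr2 by 0.32 ± 0.08, Npffr1 by 0.39 and Lrtm2 by 0.38. With the spread of values within each array as a covariate, none of the 10 passed in limma, and 10 genes were lower in all, 9 of them among the 157.

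**Figure D2:**
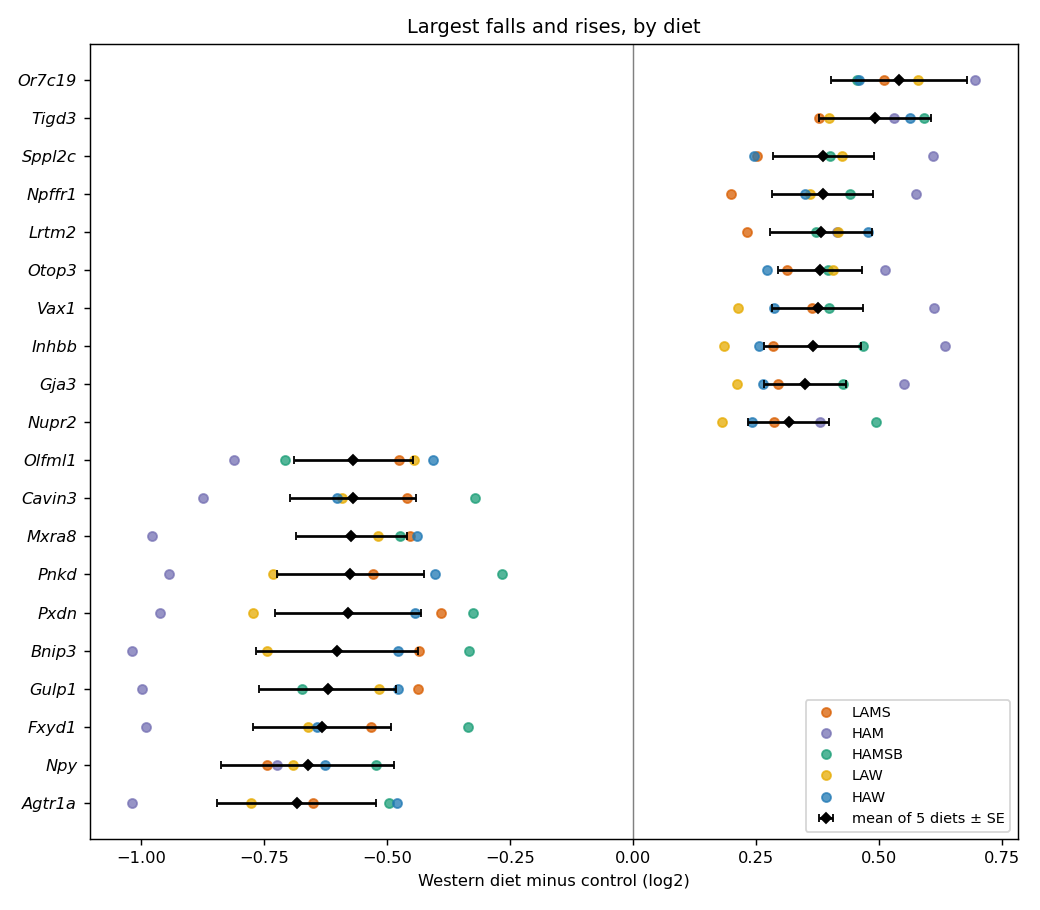
Difference from control on the log2 scale for the 10 genes counted as higher and the 10 that fell most. Of the former, Or7c19 and Sppl2c passed the signal filter only through the Western arrays. Coloured points are the single diets, diamonds are the mean of the 5 diets and bars are 1 SE from limma; every coloured point lies on the same side of 0 as its diamond, and HAM points lie farthest left for 9 of the 10 falls.

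Between the diets, the falls differed most by F test for Alcam, Abcc9, Nabp2 and Cyb5r3. Alcam, a cell adhesion molecule, lay 0.79 below control in HAM and 0.18 below in LAW (adjusted p among diets = 0.00103, limma). Abcc9, a subunit of the ATP-sensitive potassium channel of vascular muscle, was at -0.76 in HAM and -0.25 in HAW. The single-strand DNA binding gene Nabp2 showed another order, at -0.44 in LAMS and LAW, -0.40 in HAW, -0.27 in HAM and -0.04 in HAMSB. Cyb5r3 likewise was at -0.09 in HAMSB and -0.75 in HAM.

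None of 17 absorptive colonocyte genes, 16 goblet cell genes, 13 enteroendocrine genes or 6 tuft cell genes passed in limma, with medians of -0.003, -0.14, -0.23 and -0.21. Those with an unadjusted p under 0.05 numbered 0, 1, 5 and 3, against 16.8% of all genes. Guca2a, the guanylin gene of surface colonocytes, had control levels of 10.82, 11.09, 11.28, 11.32 and 10.97 and Western levels from 10.10 through 11.14 to 11.78, and its difference was -0.10 ± 0.17. Chga, the granin of endocrine cells, was at -0.23 ± 0.09 (adjusted p = 0.202, limma). The butyrate transporter Slc16a1 was at 0.04 ± 0.14 and Pdk4, a fuel-switch kinase induced by fatty acids, at -0.33 ± 0.21.

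Of the lists closest to dietary fat, 3 held no gene that passed in limma. Over 23 fatty acid oxidation genes the median was 0.003, with Cpt1a at 0.02 ± 0.16 and Hadha at 0.23 ± 0.11. Over 12 PPAR-responsive lipid genes it was 0.04, and over 19 cholesterol synthesis and uptake genes 0.11. An unadjusted p under 0.05 was found for 1, 5 and 2 of their genes, against 16.8% of all genes. In the last list 15 members lay above 0, with Lss at 0.37 ± 0.12 and Idi1 at 0.40 ± 0.20. Angptl4, Cyp1a1 and Muc2 had been chosen to be shown and were not among the genes tested.

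**Figure D3:**
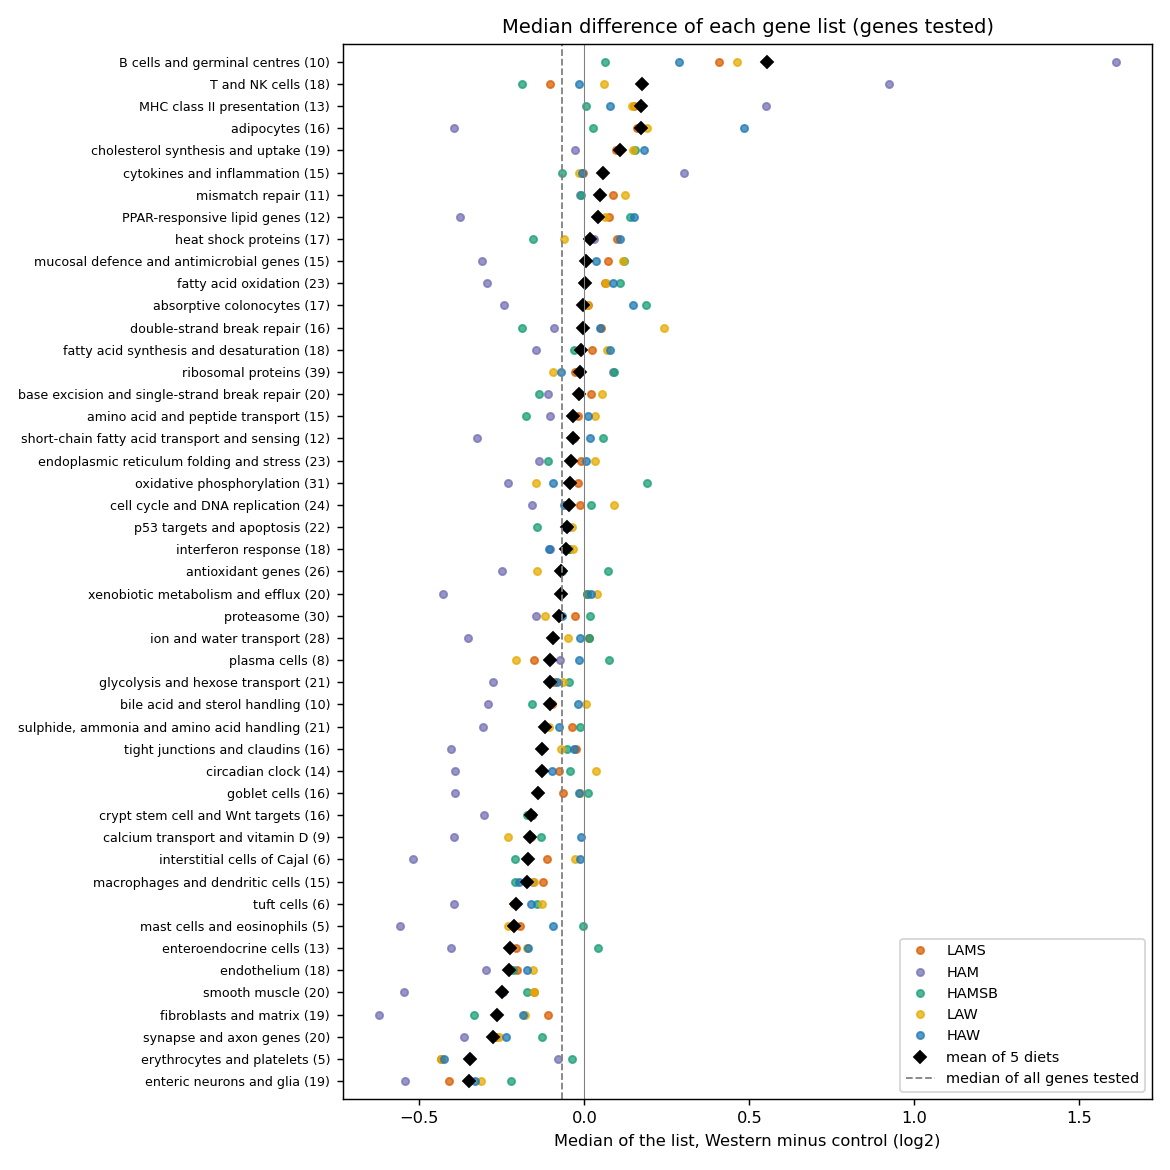
Median difference from control (log2) of the 47 gene lists with at least 5 genes tested, the number tested in brackets. Coloured points are single diets, diamonds the mean of 5 diets, and the dashed line the median of all genes at -0.07; enteric neurons and glia lie lowest at -0.35 and B cells and germinal centres highest at 0.55.

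Whole cell type lists also differed in level between the groups. The mean level of the endothelium list was 6.83 to 6.92 on the control arrays and 6.47 to 6.84 on the Western arrays, a difference of -0.19. That of the neuron and glia list was 6.19 to 6.42 against 5.58 to 6.37, a difference of -0.32. Both kept their sign and most of their size within each number range and within the file name styles that hold control arrays. The values were -0.21 to -0.16 for endothelium and -0.35 to -0.30 for neurons and glia. The styles with control arrays hold no HAM array, so HAM was not compared with control within a style. The smooth muscle level was 9.77 to 10.4 against 9.04 to 10.2, a difference of -0.25 with within-subset values from -0.44 to -0.14. Its mean was 9.58 in HAM, 9.85 to 9.95 in the other Western diets and 10.1 in control. The fibroblast level was 9.18 to 9.64 against 8.37 to 9.75, a difference of -0.30. The colonocyte level differed by 0.04.

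RNA levels of lymphoid genes varied between arrays. A B cell and germinal centre list had a mean level of 5.48 to 5.80 on 4 control arrays and 8.14 on control replicate 5. On the Western arrays it ran from 5.36 to 9.20. The difference of 0.57 was 1.07 without that control array. By diet the mean level was 7.67 in HAM, 6.29 to 6.64 in the other Western diets and 6.14 in control. Cr2, the complement receptor of B cells and follicular dendritic cells, was at 1.24 ± 1.12, and none of the list's 10 genes passed in limma or had an unadjusted p under 0.05. The interquartile range of each array's values was 3.25 to 3.38 in control and 2.68 to 3.40 in the Western diets, a difference of -0.15. Within the plain file name style this difference was -0.06, and within the style that starts with the number -0.10. For numbers to 30 it was -0.20 and for numbers above 30 it was -0.12. Whether file name style had a part in the array spread was not tested.

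**Figure D4:**
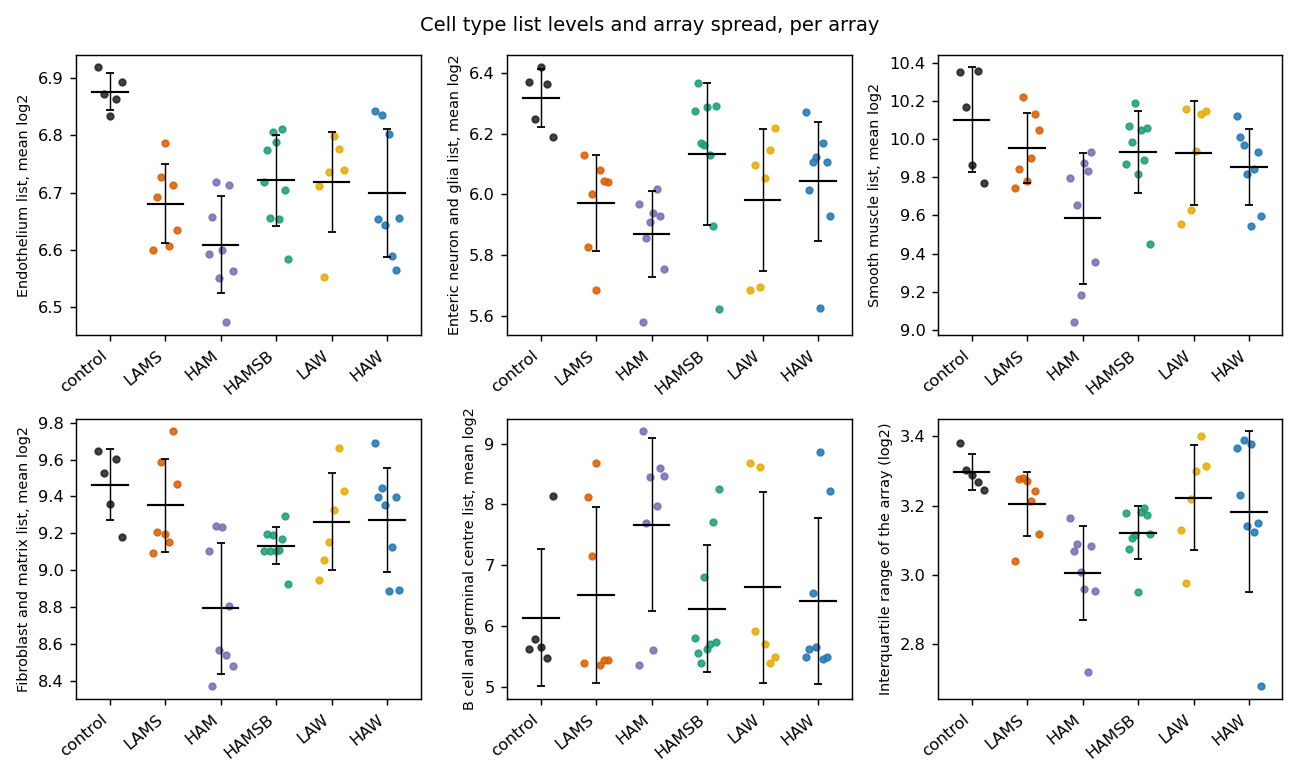
Mean log2 level of 5 cell type lists, and the interquartile range of all values, on each array by diet. Points are arrays, lines are diet means and bars are 1 SD. Endothelium points of control, from 6.83 to 6.92, lie above nearly all Western points, whereas lymphoid levels split within most diets.

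Within diets, the mean of the 147 falling genes was higher on arrays with higher levels of the muscle, fibroblast and neuron lists. Over the 43 arrays, as deviations from the diet means, it correlated at 0.82 with the smooth muscle level, 0.81 with the fibroblast level, 0.75 with the neuron and glia level, -0.69 with the lymphoid level, 0.56 with the colonocyte level and 0.40 with the array spread. Some falling genes are in those lists, Fbln1 in the fibroblast list and Ret, Gfra1, Gap43 and Npy in the neuron list. Without a list's own members the correlations were 0.80 with the fibroblast and 0.73 with the neuron and glia level. These are correlations of a mean over many genes. For single genes the median correlation with the smooth muscle level was 0.445 among the falling genes and 0.105 over all genes. These points share arrays and normalization, and the values are descriptions. With the smooth muscle level as a covariate no gene passed, 1214 had an unadjusted p under 0.05 and the lowest adjusted p in limma was 0.0623. The median difference of the 147 genes was then -0.30 in place of -0.39, and the median gene kept 76.4% of its difference. With the lymphoid level as a covariate 266 genes passed, all 157 among them, and with both 31 passed, 24 of them among the 157. Those 24 included Fgfr1, Lox, Ret, Fads2, Agtr1a and Mxra8. With the fibroblast level as a covariate no gene passed, and 1177 had an unadjusted p under 0.05. Whether the share of wall layers in the tissue pieces had a part in the falls was not tested.

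**Figure D5:**
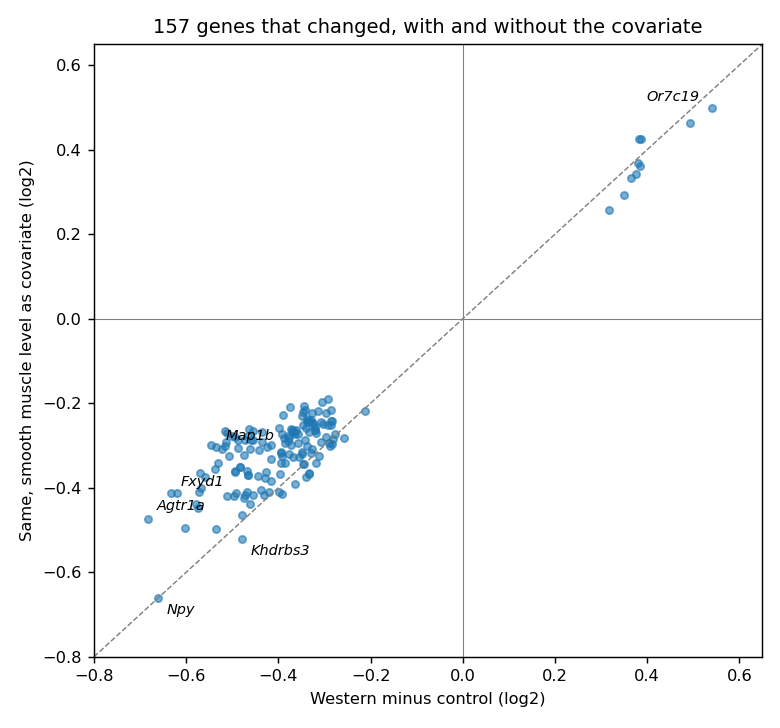
Difference from control (log2) of the 157 genes that changed, without a covariate on the horizontal axis and with the smooth muscle level as a covariate on the vertical axis. Points are genes and the dashed line marks equal values; falls lie mostly above the line, closer to 0, while Npy at -0.66 lies on it.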

How the data were processed

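RNA of the distal colon of 43 rats was measured on Affymetrix arrays. The authors deposited log2 values of 29214 probe sets, and the submitters' processing notes name RMA as their tool. The version of RMA and the genome build of the array are not given in the sources used here. The values ran from 1.31 to 14.0. Array images were not analysed here. Platform annotation gave 1 symbol to 15310 probe sets, several to 323 and none to 13581, and symbols matched current ones through their gene identifiers. Each symbol was represented by its probe set of highest mean. The filter was a median over all arrays of at least 4.79, the 25th percentile. Precision is limited by array number and by signal over background.

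A mean for each of 6 diets was fitted with lmFit and eBayes of limma 3.58.1 in R 4.3.3, without a block, and the code was tested on simulated data. Figures used matplotlib 3.10.9 in Python 3.11.15. Alternatives covered filters, probe sets, prior, array weights, centring, diet weights, blocks by name style, number range and replicate number, covariates of array levels, subsets of arrays, each diet left out and each array left out. The fibroblast and colonocyte covariates were added after seeing the data. The 48 gene lists name 1028 members; 807 passed the filter, and 14 members were found under an older name. Named genes were the 10 largest rises and falls, up to 2 members with the smallest p of each list, fixed genes (1 is not reported here), and the 4 changed genes that differed most among diets. Fgfr1, Vstm4, Hs3st1, Ston1 and the genes of the role groups and lists outside that rule were chosen after their values were seen. The comparison, the lists and the tests were chosen with earlier results of these data known.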

Additional observations from a re-analysis of the deposited data

Results flagged for a closer look

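Single arrays stood apart from the rest of their diet in 19 of 240 groups of arrays examined, for the 37 genes named by the rule and 3 array levels; chance marks about 1 in 20 groups. In control, the lymphoid level reached 8.14 on 1 array, with the next at 5.80. In LAMS, Alcam reached 8.30 on 1 array, and the lowest Gap43 was 5.86. In HAM, Or7c19 reached 6.13, with the next at 5.23. In HAMSB, 1 array had Otop3 at 5.78, the lowest Npy was 5.44, the lowest smooth muscle level was 9.45 and the lowest array spread was 2.95. The lowest HAMSB values of Nlgn2, Fbln1, Prph and Actg2 were 6.225, 9.28, 5.29 and 12.04. In LAW, the highest Sppl2c was 5.41, the highest Npy 6.55 and the lowest Asl 6.375. In HAW, the highest Nupr2 was 6.18, the lowest array spread 2.68, the lowest Gap43 5.64 and the lowest Slc16a1 9.61.

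The difference from control was unequal among the 5 Western diets by the F test of limma for 22 of the 37 genes, against 27.5% of all genes. Alcam, Abcc9, Nabp2 and Cyb5r3 were among the 37 because of their small p in this F test, so their passing was fixed by that choice. Adjusted p-values were 0.00103 for Alcam and for Abcc9, 0.00193 for Nabp2, 0.00194 for Cyb5r3, 0.00398 for Mxra8, 0.00782 for Pxdn, 0.00865 for Pnkd and 0.00946 for Inhbb. They were 0.0125 for Fxyd1, 0.0146 for Bnip3, 0.019 for Cavin3, 0.0194 for Gulp1, 0.0208 for Gja3, 0.0259 for Vax1, 0.0357 for Nupr2, 0.0405 for Olfml1 and 0.0442 for Sppl2c. They were also under 0.05 for Chga (0.00264), Nlgn2 (0.0109), Asl (0.0132), Guca2a (0.0138) and Slc16a1 (0.0324). Mxra8, Pxdn and Pnkd lay 0.94 to 0.98 below control in HAM and 0.27 to 0.47 below it in HAMSB.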

How the results depend on the processing

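The count of 157 changed genes stayed within 1.5 times with the stricter filter, with every probe set, with a robust trended prior, with equally weighted arrays, the number range, both blocks together, and HAW, LAMS or LAW left out (123 to 224). It was 103 with no filter, 744 with array weights, 307 with name style as a block, 266 with the lymphoid level, 31 with lymphoid and smooth muscle levels, 10 with array spread, 756 with the colonocyte level and 350 with HAMSB left out. It was 0 with centred arrays, with the smooth muscle or the fibroblast level and with HAM left out. It was also 0 within each number range and each name style that holds control arrays. Leaving out 1 array gave 0 to 222. The count that shared direction in all 5 diets was the same except for 718 with array weights, 755 with the colonocyte level, 305 with name style, 121 with both blocks and 178 of 179 without HAMSB replicate 9. With all probe sets 168 were lower and 56 higher. With both blocks together the count was 123, but only 57 of those genes were among the 157. The cause of these changes was not tested.

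Genes that differed among the 5 Western diets numbered 2974. The count was 5249 with all probe sets, 7296 with array weights, 1469 with array spread, 1651 with the smooth muscle level and 1114 with the fibroblast level. It was 1422 with name style, 690 with both blocks, 1088 without HAM, 1115 without HAMSB, 921 for numbers above 30 and 546 for numbers to 30. In the plain style it was 0, but there the test was among LAMS, LAW and HAW only. Leaving out 1 array gave 2189 to 4031.

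With the replicate number as a block 31 genes passed, 30 of them among the 157. The numbers do not pair arrays: the median correlation of deviations was -0.05 for arrays with the same number and 0.02 for others, 37 of 94 same-number pairs exceeded 0.1, and 4 of 43 arrays matched their own number best.

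Among named genes, values near 0 changed sign. Actg2 was 0.0253 with the smooth muscle level and 0.0262 with the lymphoid level added. Guca2a was 0.0422 with the fibroblast level, 0.0282 with the lymphoid level, 0.0348 with the smooth muscle level, 0.0562 for numbers to 30 and 0.258 in the number-first style. Pdk4 was 0.00817 with the fibroblast level. Slc16a1 was -0.00487 without LAMS, and from -0.0436 to 0.125 with 1 array left out, the lowest without control replicate 5.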

Other observations

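Further genes that fell were picked out here after their values had been seen and form no tested set. Pbx3, a homeobox cofactor, fell by 0.47 ± 0.12 and Zfp521, a zinc finger factor of mesenchymal progenitors, by 0.43 ± 0.10. Klf7 fell by 0.35, Nfatc4 by 0.35, Zbtb20 by 0.39 and the cofactor Ldb2 by 0.37. Rarres2, which encodes the adipokine chemerin, fell by 0.41, the scaffold gene Akap12 by 0.51 and the amyloid precursor gene App by 0.29. Gnas, the stimulatory G protein subunit, had the smallest fall of the 147, at 0.21.

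Mucosal defence genes showed wide differences with wide errors, and none of 15 passed in limma. Of these, 3 had an unadjusted p under 0.05, against 16.8% of all genes. Retnlb, a goblet cell product active against bacteria, was at -1.34 ± 0.57, and Slpi, a secreted protease inhibitor, at 1.17 ± 0.44 (adjusted p = 0.153, limma). Nos2 was at 0.33 ± 0.11 and lay above the control mean on 34 of 38 Western arrays. The goblet cell lectin Zg16 was at 0.89 ± 0.41. Among 13 genes of MHC class II presentation the median was 0.17, at 0.55 in HAM and 0.01 to 0.15 in the other diets. Among 18 T and NK cell genes it was 0.18, at 0.92 in HAM and -0.19 to 0.06 in the others. Of 16 adipocyte genes the median was 0.17, at -0.40 in HAM and 0.48 in HAW.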
